A study of Mus musculus with 2 samples.

Results

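The EGF receptor family and its ligands were followed through 10 genes, each found on the array by the RefSeq accession that its probe carries: the receptors Egfr, Erbb2 and Erbb3, the receptor inhibitor Errfi1, and the ligands Epgn, Hbegf, Areg, Tgfa, Btc and Nrg1. They are 10 of 20144 genes with a named probe, were chosen by symbol, and were read by 12 probes, 3 of them for Egfr and 1 for every other gene. The study hybridised RNA of mouse primary keratinocytes, which form the epithelium of the skin surface, to 1-colour arrays, 1 array for a sample lacking Rac3 (Rac3-KO, the control of the labels) and 1 for a sample labelled as lacking both Rac1 and Rac3 (Rac1Rac3-DKO). Both samples thus carry the Rac3 deletion, and both are described as P3 cells. Rac1 and Rac3 are small GTPases that relay signals to the actin cytoskeleton. By its title, the series asks how keratinocyte Rac acts on the fat cells of the dermis. The promoter behind the Rac1 deletion and the number of animals are not given in the sources used here. Each genotype has 1 array, so differences have no replicate check and could not be tested.

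Receptors of this family are tyrosine kinases that pair up when a ligand binds outside the cell. Egfr takes up the EGF-like ligands, Erbb2 binds none of them and serves as a partner, and Erbb3, whose own kinase is weak, is opened by neuregulins. The ligands are made as membrane-anchored precursors and released by ADAM proteases, and keratinocytes use several of them to stimulate themselves in growth and wound repair. Mice with reduced Egfr or without Tgfa have wavy hair, which ties the pathway to skin and follicle.

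Levels are log2 processed signals relative to the 75th percentile of each array, and a gene counts as measured when it was well above background on both arrays. That percentile was a processed signal of 705 for Rac3-KO against 354 for the array labelled DKO, and the lowest level well above background was -4.91 and -4.14, so the DKO-labelled array reached less far down. Rac1 itself did not bear out the label: its probes differed by 0.28 and -0.12 (log2, DKO-labelled minus Rac3-KO), each with a software signal error of 0.20, and whether they lie in the deleted part is not known, so every direction below is that of the array as labelled. Rac3, deleted in both samples by the labels, was well above background on both and differed by 0.24 with an error of 0.24. Keratinocyte markers were present on both arrays, but so were markers of other tissues. All 15 keratinocyte markers had a lower level in the DKO-labelled sample, 11 of them by 2-fold or more, against 6.62% of all measured genes. Their median difference was -1.76, with a range from -4.95 to -0.59. Their summed signal was 1069 times the 75th percentile on the Rac3-KO array against 313. The brightest were the basal keratin gene Krt5, at -1.20, and the junction gene Perp, at -1.34. All 12 muscle markers were measured, 11 of them at least 2-fold higher, against 7.71% of all measured genes. They had a median of 2.60 and a summed signal of 373 against 2059, and Tnnc2 and Tnni2, the brightest, differed by 2.40 and 2.66. No keratinocyte or muscle marker was below the background limit. The share of these changes in the differences of the EGF receptor family was not tested, and in bulk RNA fewer cells of a type and less RNA per cell cannot be told apart.

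The start regions of 4 members are printed, as 2 pairs. Epgn and Areg are ligand genes near each other on chromosome 5, with the ligand gene Ereg between them. Epgn was lower on the DKO-labelled array, where Areg was not well above background. Erbb2 and Egfr are receptor genes: Erbb2 was lower on that array, while the sign of the Egfr difference depended on the scaling. Each printed region runs from 250 bases before the transcript start to 50 after it, in the direction of transcription, from RefSeq on GRCm38.p6. These windows are Epgn at chr5:91027267-91027566, Areg at chr5:91139349-91139648, Egfr at chr11:16751953-16752252 and Erbb2 at chr11:98412234-98412533, all on the plus strand. Capitals mark matches, on either strand, to a TATA box (TATAAA), a GC box (GGGCGG), an AP-1 site (TGANTCA) or a cyclic AMP response element (TGACGTCA); the last 2 read the same on both strands, and none of the 4 motifs contains another.
Epgn: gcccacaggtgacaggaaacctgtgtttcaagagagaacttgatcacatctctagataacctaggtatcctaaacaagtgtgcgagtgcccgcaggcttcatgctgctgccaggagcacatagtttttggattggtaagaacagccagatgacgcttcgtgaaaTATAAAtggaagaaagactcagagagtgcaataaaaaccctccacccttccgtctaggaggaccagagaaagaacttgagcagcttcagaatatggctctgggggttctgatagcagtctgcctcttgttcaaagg
Areg: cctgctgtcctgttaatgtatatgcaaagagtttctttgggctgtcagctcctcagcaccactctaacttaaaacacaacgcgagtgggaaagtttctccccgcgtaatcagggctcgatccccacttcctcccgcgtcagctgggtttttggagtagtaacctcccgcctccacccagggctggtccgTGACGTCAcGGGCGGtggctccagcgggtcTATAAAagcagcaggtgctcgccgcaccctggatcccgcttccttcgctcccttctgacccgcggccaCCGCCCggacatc
Egfr: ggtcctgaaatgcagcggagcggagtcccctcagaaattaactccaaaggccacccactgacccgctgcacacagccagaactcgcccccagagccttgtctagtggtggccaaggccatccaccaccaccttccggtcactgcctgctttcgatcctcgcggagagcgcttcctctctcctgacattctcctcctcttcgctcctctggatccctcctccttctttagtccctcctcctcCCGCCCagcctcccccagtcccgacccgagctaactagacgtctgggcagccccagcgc
Erbb2: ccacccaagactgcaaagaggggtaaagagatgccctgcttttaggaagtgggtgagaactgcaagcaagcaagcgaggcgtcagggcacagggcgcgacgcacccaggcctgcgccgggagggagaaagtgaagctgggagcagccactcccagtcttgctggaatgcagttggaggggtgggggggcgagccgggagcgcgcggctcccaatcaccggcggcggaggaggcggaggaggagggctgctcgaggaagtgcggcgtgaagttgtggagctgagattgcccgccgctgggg
The Epgn window held 1 TATA box, 86 bases before the start. The Areg window held a TATA box 31 bases before the start, a cyclic AMP response element 61 bases before it, and 2 GC boxes. Egfr had a single GC box, 9 bases before the start, and Erbb2 had none of the 4 motifs. Over all 32851 windows of this length in the table, 13.6% held the TATA box, 35.7% the GC box, 7.81% the AP-1 site and 1.79% the cyclic AMP response element. No AP-1 site lay in any of the 8 windows of the 7 members compared, which says only that these letters are not there. Windows of Erbb3, Hbegf and Nrg1 were not among those compared, so nothing is said of these genes. A match is a description of the letters, not a site of binding.

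Of the 10 members, 6 were measured on both arrays, 3 were detected only on the Rac3-KO array, and 1 on neither. The ligand gene Epgn was the single member at least 2-fold apart, lower on the DKO-labelled array, against a background of 6.62% of 14144 measured genes at least 2-fold lower; no member was at least 2-fold higher, against 7.71%. Among the 6 measured members 3 differences lay below 0 and 3 above, with a median of -0.23 (log2) beside -0.01 over all measured genes. Erbb3, Areg and Tgfa were the members detected on the Rac3-KO array only, 3 of the 9 detected on either array, against 5.63% of 15239 genes; detection on the DKO-labelled array only had a background of 1.51% and held 0 members. Detection depends on signal, however: of 877 genes whose Rac3-KO signal lay in the range of these members, 37.5 to 66.7, 338 (38.5%) were likewise detected on the Rac3-KO array only. The calls also depend on the limit: by the software's significance flag, which passed more genes, all 10 members were measured on both arrays. The differences were then -1.04 for Erbb3, -0.66 for Areg, -1.35 for Tgfa and 0.92 for Btc. Their software errors were large, at 0.45, 0.44, 1.01 and 0.80 in that order. Btc had nearly equal signals before scaling, 12.0 and 11.4.

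**Figure D1:**
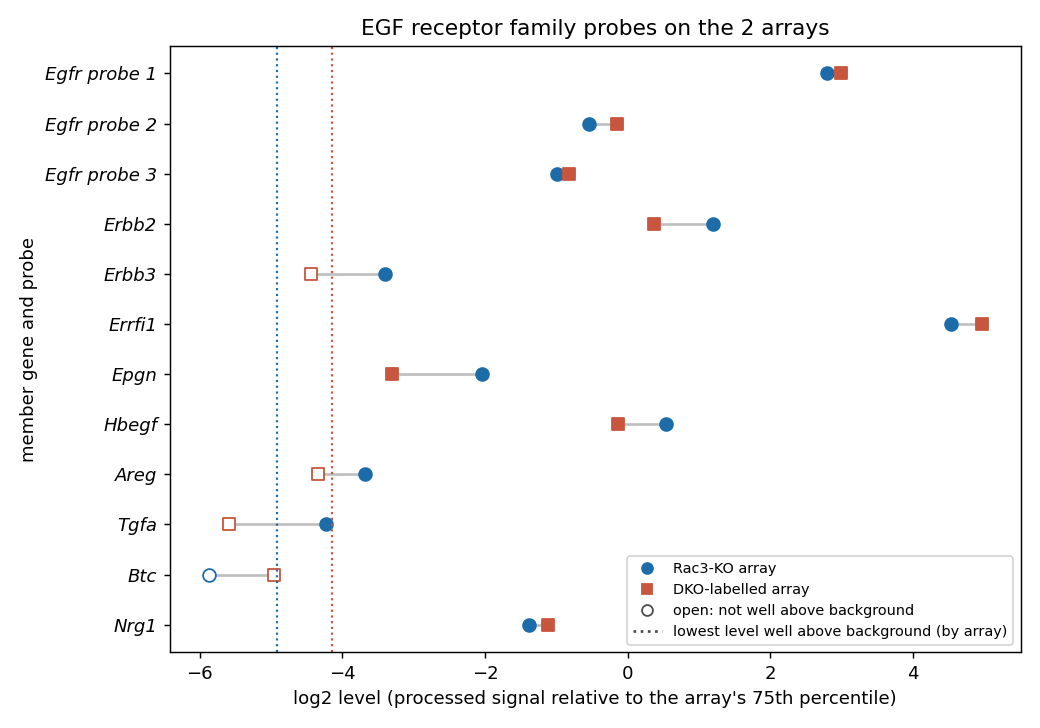
Log2 level (processed signal relative to the array's 75th percentile) of each of the 12 probes on the Rac3-KO array (circles) and its DKO-labelled counterpart (squares); open symbols are not well above background and dotted lines mark each array's lowest level that was. Epgn, Erbb2 and Hbegf lie lower on the DKO-labelled array, and Egfr, Errfi1 and Nrg1 slightly higher, which turns to lower on the spike-in scale; levels of different probes are not comparable with each other.

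Of the measured receptors, Erbb2 was lower on the DKO-labelled array, while the direction of Egfr depended on the scaling. Egfr, the receptor of the EGF-like ligands, had a processed signal of 4876 for Rac3-KO against 2821 for the DKO-labelled array at the probe for accession NM_207655, which is spotted 10 times on each array. These are levels of 2.79 and 2.99 after scaling. The difference of 0.20 was as large as the software's error of 0.20, although all 10 pairs of spots at the same array position gave a value above 0 (SD 0.10 over spot pairs), and it turned to -1.83 when the arrays were scaled to spike-in RNAs. The other 2 Egfr probes carry accession NM_007912, a second RefSeq transcript of the gene. They had signals of 487 and 355 in the Rac3-KO sample, 320 and 199.7 in the other sample before scaling, and differed by 0.39 and 0.16. All 3 Egfr probes thus differed in the same direction and by less than 0.4 (log2).

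Erbb2, the partner receptor without a ligand of its own, was lower on the DKO-labelled array. Its probe, also spotted 10 times, read 1617 for Rac3-KO, with spots from 1561 to 1694, against 458 in the DKO-labelled sample, with 9 spots kept from 425 to 501. The spots of the 2 arrays did not overlap. The difference of -0.83, or 1.77-fold lower, exceeded the software's error of 0.20, and 9 of 9 spot pairs lay below 0 (SD 0.08). It did not reach the 2-fold threshold.

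Erbb3, the neuregulin receptor, was dim. Its signal was 66.7 for Rac3-KO against 16.3 on the other array, where it was not well above background. Set against the lowest level well above background there, it was at least 1.67-fold lower, leaving aside its software error of 0.45 (log2). Erbb3 is also known from melanocytes and Schwann cells. The 8 melanocyte markers included 4 that were lower by 2-fold or more, against 6.62% of all measured genes. Higher to that extent were 0, against 7.71%. Their median was -0.99 (range -1.66 to 0.22), and their summed signal was 93.8 and 46.0 times the 75th percentile. The brightest, Dct and Pmel, differed by -1.50 and -0.68. Of 10 Schwann cell markers 7 were measured, with a median of -0.39 (range -1.26 to 1.19; summed signal 39.5 and 64.6); Pmp22 and Mbp, the brightest, differed by 1.19 and 0.16, and Cdh19 and Gfap were well above background on neither array. Their part in the Erbb3 value was not tested.

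**Figure D2:**
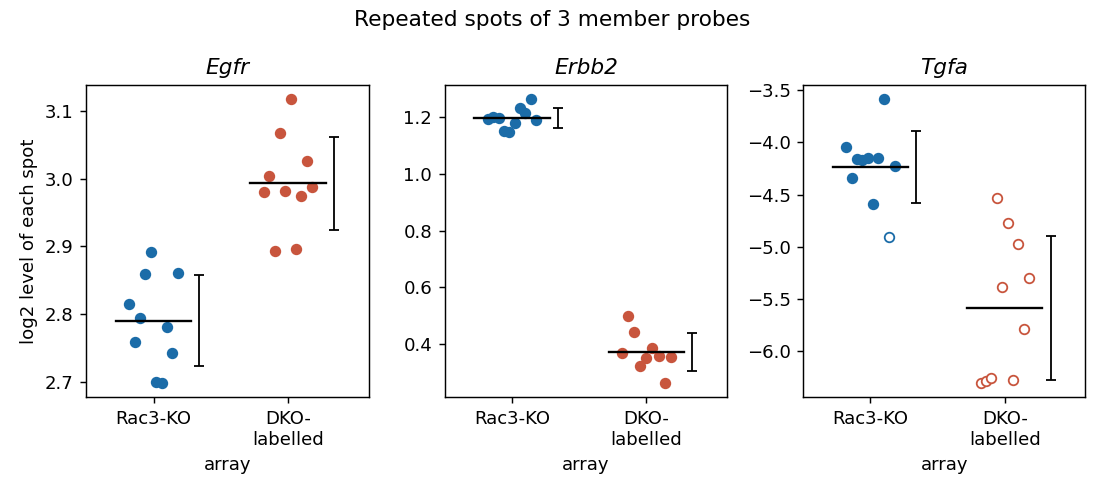
Log2 level of every kept spot of the repeated probes for Egfr, Erbb2 and Tgfa (10 spots on each array, 9 for Erbb2 on the DKO-labelled array), with the mean as a line and the SD over spots as a bar; open points are not well above background. The Erbb2 spots of the arrays lie far apart, the Egfr spots only slightly and in the opposite direction (lower too on the spike-in scale). None of the 10 Tgfa spots on the DKO-labelled array was well above background. Spots show the precision within an array, not between samples.

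Errfi1, which encodes an inhibitor that binds the active receptor kinase and is itself induced by receptor signalling, had a higher level on the DKO-labelled array. Its signal was 16373 for Rac3-KO against 11062 for the DKO-labelled array, or levels of 4.54 and 4.96. The difference of 0.43, or 1.34-fold higher, exceeded the software's error of 0.20, stayed below the 2-fold threshold, and became -1.60 on the spike-in scale.

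Among the ligands, Epgn, Hbegf and Nrg1 were measured. Epgn encodes epigen, an EGF-like ligand of Egfr. Its signal was 172 for Rac3-KO against 35.8 on the other array, where the lowest signal well above background was 20.1. The levels of -2.03 and -3.31 give a difference of -1.27 with a software error of 0.27, or 2.42-fold lower. The normexp setting, which started from median spot and background signals and added an offset of 50, reduced it to -0.47 and ended the 2-fold call; which of these steps did so was not tested. Hbegf, a heparin-binding ligand released at wounds, read 1026 and 324. It was 1.59-fold lower, with a difference of -0.67 and an error of 0.21, and normexp left it at -0.69. Nrg1, a neuregulin that binds Erbb3, read 269 and 163. It differed by 0.27 with an error of 0.21, or by -1.76 on the spike-in scale.

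Areg and Tgfa, ligands that keratinocytes release to act on their own Egfr, were well above background for Rac3-KO alone. Areg, encoding amphiregulin, had a signal of 55.1 for Rac3-KO against 17.5 on the other array. That makes it at least 1.38-fold lower, leaving aside its software error of 0.44 (log2). Tgfa, encoding transforming growth factor alpha, averaged 37.5 over 10 spots on the Rac3-KO array, with the mean taken on the log2 scale. These spots ran from 23.5 to 58.7, and 9 of the 10 were well above background. The 10 Tgfa spots on the DKO-labelled array ran from 4.49 to 15.3, with a mean of 7.38 taken likewise, and 0 of 10 passed that limit. The spots did not overlap in signal, but in level they did: the lowest Rac3-KO spot, at -4.91, lay below 2 of the DKO-labelled spots, at -4.53 and -4.77. No fold can be given for Tgfa, because its Rac3-KO level of -4.23 lay below -4.14, the lowest level above that limit there. Btc, encoding betacellulin, was well above background on neither array, with signals of 12.0 and 11.4.

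**Figure D3:**
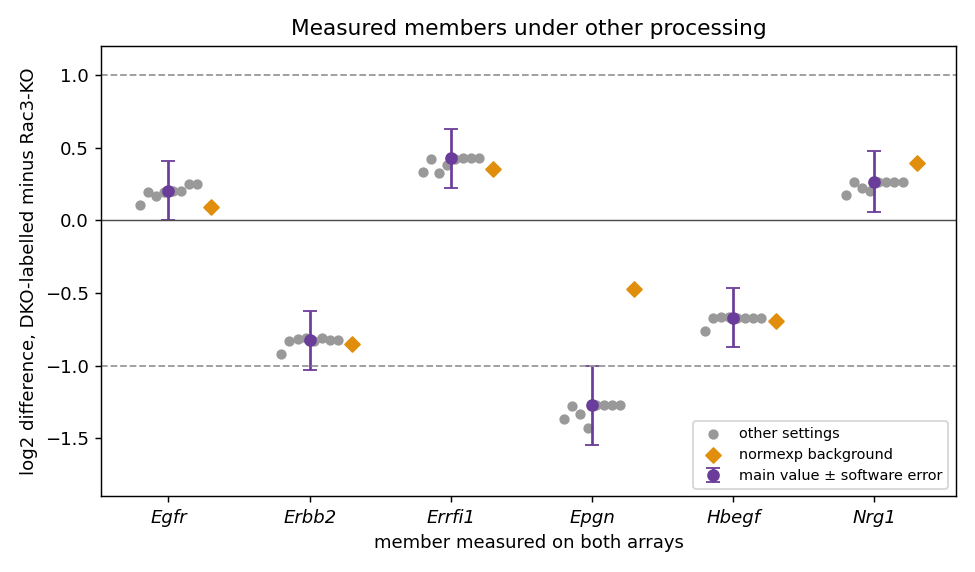
Log2 difference (DKO-labelled minus Rac3-KO) of the 6 measured members: the main value with the software's signal error as a bar, the value after normexp background correction (diamonds) and 8 further settings (grey). Epgn is the only one of the 6 beyond the dashed 2-fold line, and normexp moves it from -1.27 to -0.47; scaling to spike-ins, which puts all 6 below -1, is not drawn.

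The remaining receptors and ligands of the family were mostly dim. Of 6 such genes 2 were measured. Egf, encoding the founding ligand, read 56.4 and 52.2 before scaling and differed by 0.88 with an error of 0.28. Nrg4 differed by 0.06. On the spike-in scale the 2 differences became -1.15 and -1.96. Nrg2 was detected only on the Rac3-KO array, at 71.6 against 14.0, and at least 1.79-fold lower, leaving aside its error of 0.54 (log2). The receptor gene Erbb4 and the ligand genes Ereg and Nrg3 were well above background on neither array.

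Genes that act on the release of ligands, counting the protease inhibitor gene Timp3 (0.14), were all measured, 10 of 10, with a median of 0.21. At least 2-fold lower were 0 and higher 1, against 6.62% and 7.71% of all measured genes. The 1 was Adam17, encoding the main protease for Tgfa, Areg and Hbegf, and its probes disagreed in direction: one read 65.9 and 83.5, a difference of 1.33, and the other 96.8 and 27.6, a difference of -0.82. Their mean of 0.26 is no 2-fold difference, and with normexp, where the representative probe was chosen anew, the gene's value was 0.04. No direction is therefore given for Adam17.

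Signal adaptors and kinases downstream of the receptors lay close to 0. All 26 were measured, with a median of 0.06 and a range from -1.14 to 0.70. At least 2-fold higher were 0, against 7.71% of all measured genes, and 1 was lower, against 6.62%. That gene was Pik3cb, a catalytic subunit of phosphoinositide 3-kinase, which read 593 and 135 and was 2.21-fold lower, or -0.85 (log2) with normexp.

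Of 22 measured genes of receptor turnover and feedback, 1 lay at least 2-fold below and 1 above, and the median was -0.24. Over all measured genes the shares were 6.62% and 7.71%, so these counts are not above the background. Cblc, encoding an epithelial ubiquitin ligase of the Cbl family, was 3.04-fold lower, from 1614 to 267, and its second probe gave -1.58 beside -1.60. Ptprj, encoding a receptor phosphatase, was 2.22-fold higher, from 620 to 691 before scaling, and its 4 probes differed by 0.87 to 1.22; normexp left it at 0.995 (log2), just under 2-fold, and the spike-in scale turned it to -0.88. Ptprj is also expressed by leukocytes, of whose 9 measured markers all were higher and 4 at least 2-fold (median 0.99, range 0.38 to 2.19; summed signal 45.0 and 106; Csf1r and Itgam, the brightest, at 1.45 and 1.16; Cd68 was not matched to a probe). Their part in its value was not tested. Dusp5, of the same list, was detected on the Rac3-KO array only, with no fold above 1.

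Early genes that ERK signalling induces were below 0 more often than above it, though rarely by 2-fold. Of 16 measured, 12 lay below 0 and 4 above, with a median of -0.52 beside -0.01 over all genes, and 1 was at least 2-fold lower, near the background share. The 1 was Egr2, a zinc finger factor that also marks Schwann cells, 2.39-fold lower, from 3080 to 647. Many stimuli induce these genes, and the counts are not particular to the EGF receptor. Keratinocyte markers, with a median of -1.76, were lower beside them. Fibroblast, endothelial and adipocyte markers, whose cells express early genes too, had medians of 0.62 (10 measured, range -0.29 to 1.01; summed signal 1598 and 2724), 0.61 (8 measured, 0.06 to 1.17; 19.3 and 37.4) and 0.57 (7 of 8 measured, 0.38 to 1.33; 165.7 and 242; Lep on neither array). Col1a2 and Col3a1 were the brightest fibroblast markers, at 0.85 and 0.79, Kdr and Cldn5 the brightest endothelial ones, at 1.17 and 1.07, and Fabp4 and Lpl the brightest of adipocytes, at 0.38 and 0.92. Their part in these values was not tested.

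**Figure D4:**
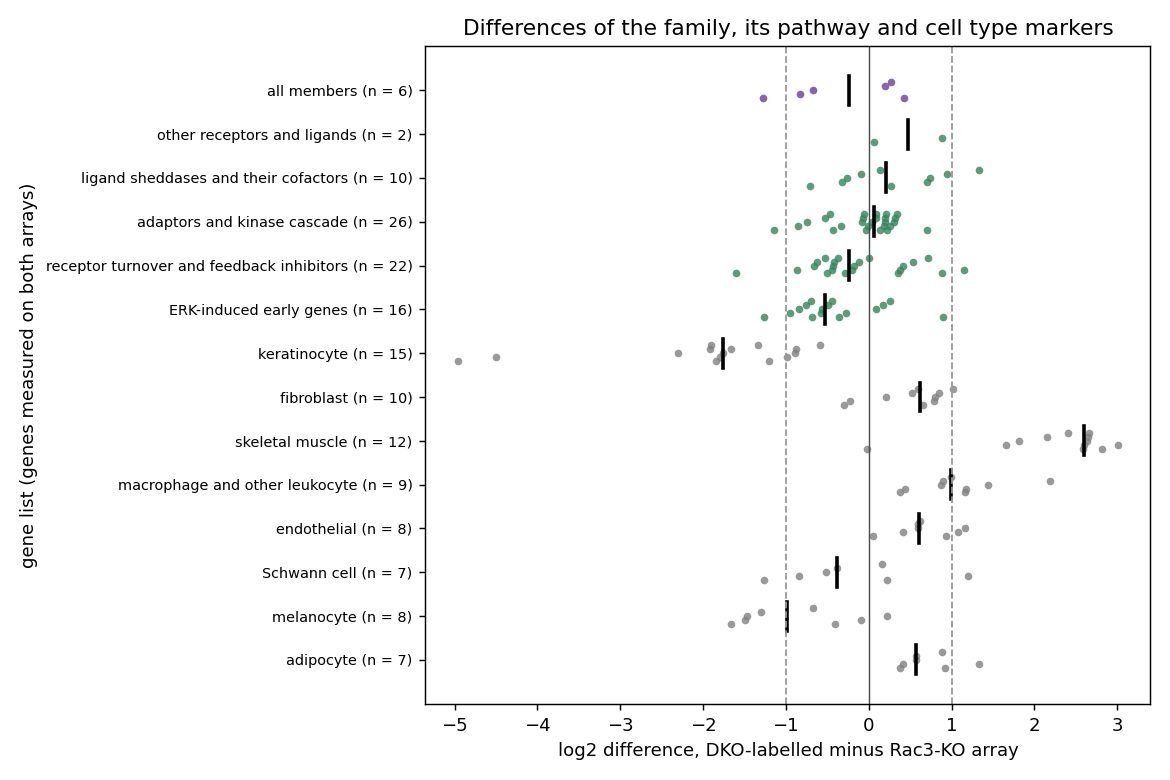
Log2 differences (DKO-labelled minus Rac3-KO) of genes measured on both arrays, 1 point a gene, for the 10-gene family (6 measured), 5 pathway lists and 8 marker lists, with medians as bars and dashed lines at 2-fold. The family and pathway medians lie between -0.52 and 0.47, while keratinocyte markers have a median of -1.76 and muscle markers of 2.60; on the spike-in scale all points shift down together, and the median of all genes is -2.04.

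The genes whose levels on the 2 arrays lay nearest to those of Epgn were Hsd17b2, Cnksr2 and Celf5, at Euclidean distances of 0.08, 0.10 and 0.10 in log2 level. With only 2 arrays this likeness describes a pair of levels.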

How the data were processed

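RNA of the 2 samples, grouped by the genotype labels, was read on 1-colour (Cy3) Agilent arrays. The deposited scanner files hold spot intensity from Feature Extraction 10.10.1.1, as the file headers state, while version 9.1 stands in the submitters' processing notes. Both arrays share a scan, per the file headers. The authors' deposited value table holds log2 levels; subtracting a constant from the log2 processed signal gives the same values, a constant close to each array's 75th percentile, for 100% of probes spotted once (tolerance 0.001), with column medians of -3.72 and -3.62.

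Log2 processed signals were averaged over a probe's spots without control spots and outlier flags (155 and 190 spots), leaving 55678 probes, and each array's 75th percentile was subtracted. Accessions were matched without versions to RefSeq (GRCm38.p6, names only): 26580 probes took the name of 20144 genes and 29098 stayed unnamed. A gene was represented by its probe of highest mean level. A probe was well above background when over 0.5 of its spots were; no spot was saturated. For an at-least fold, the dim side is raised to that array's lowest level well above background where it lies under it. Such a fold leaves out the signal error, so it is not a firm bound. Thresholds were 2-fold, and errors are technical only: the software's signal error, repeated spots, and the spread between a gene's probes (root mean square SD 0.38 over 3578 genes). The number of arrays limits the precision.

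Members and lists were chosen with earlier results of these data known. All members are named. Of each pathway list the genes at least 2-fold apart, or else the largest difference each way, and of each marker list the 2 brightest genes are named; other genes named to complete a count were chosen after their values were seen. The value of 1 marker gene is not reported here. The code was tested on simulated data. Python 3.11.15, R 4.3.3 and limma 3.58.1 were used. Alternatives were normexp (offset 50, on median spot and background signals, since the mean signal was not used here), other scalings, the value table, outlier spots, probe means, filters and fold thresholds; the software's significance flag was added after the data were seen.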

Additional observations from a re-analysis of the deposited data

How the results depend on the processing

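The value table, outlier spots, quantile, loess, median and percentile scalings left each measured member within the software's error of its main value and each count within 1.5 times; of 139 recomputed values 111 did so and 28 moved. With normexp the Epgn difference was -0.47, and 0 members were at least 2-fold lower, beside 4.70% of all measured genes. With it 0 pathway genes were higher in place of 2, beside 5.43%. The pathway genes at least 2-fold lower were again 3, with the feedback gene Lrig1 (-1.04, main value -0.87) in place of Pik3cb (-0.85). On the spike-in scale the median of all genes was -2.04, and 92.7% of measured genes were at least 2-fold lower. Egfr gave -1.83, Erbb2 -2.85, Errfi1 -1.60, Epgn -3.30, Hbegf -2.70 and Nrg1 -1.76, with a member median of -2.26. On that scale 6 members and 74 pathway genes were lower and 0 pathway genes higher. Relative to that shift the order did not change, since it is 1 constant for all probes. With no filter on dim probes the member median was -0.66, and 3 members and 6 of 84 pathway genes were lower, beside 7.55% of all genes. With the software's significance flag, by which all 10 members were measured, the median was -0.66. By that flag 3 members and 5 of 80 pathway genes were lower, beside 7.77% of all measured genes. A stricter filter removed Epgn, giving a median of 0.20 and 0 members lower, beside 6.19% of all measured genes. At 1.5-fold 3 members and 14 of 76 pathway genes were lower and 10 pathway genes higher, beside 16.5% and 18.2% of all measured genes. At 3-fold 0 members and 1 pathway gene were lower and 0 higher, beside 2.23% and 2.29%. The mean over probes well above background left 1 pathway gene higher, beside 7.53% of all measured genes. Higher genes made up 53.8% of all genes at least 2-fold apart, 43.6% with median scaling, 0.114% on the spike-in scale. Signal over background limits Erbb3, Areg, Tgfa and Btc, which enter the counts and medians by the flag and with no filter. No paired analysis was possible because each genotype has 1 array.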

Other observations

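The ligand genes Epgn, Ereg, Areg and Btc are neighbours on chromosome 5, so the protein-coding genes within 500 kb of them were read as well, a window chosen after the values of the ligands were seen. Of 11 other genes there 7 were measured, 3 were well above background on neither array, and 1 had no matched probe. Rassf6, encoding a Ras association domain protein and lying beyond the chemokine genes from Epgn, read 406 and 90.0, which is 2.27-fold lower in the DKO-labelled sample. Pf4, encoding platelet factor 4, read 37506 and 40883 and was 2.17-fold higher relative to the 75th percentile. The neighbours Mthfd2l and Parm1, which flank the ligand genes, differed by -0.46 and -0.50. The neutrophil chemokine genes Cxcl1 and Cxcl2, close sequence copies and so uncertain here, differed by -0.73 and -0.41, and the platelet chemokine gene Ppbp by 0.59. On the spike-in scale all 7 would shift down by the same constant.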
